A study of Saccharomyces cerevisiae with 90 samples.

Results

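The yeast Saccharomyces cerevisiae was grown on SD agar or in SD liquid with a pRS316 plasmid carrying MSB2*, a form of the cell-surface mucin gene MSB2, and RNA levels of both cultures were compared. The samples were chosen by their labels: replicates A to C of MSB2* on SD agar and replicates A to C of MSB2* in SD liquid, 6 of the 90 arrays of the series. Set against them were 6 arrays of the empty plasmid pRS316, 6 of wild-type and 6 of an msb2 knockout, each strain with 3 arrays on SD agar and 3 in SD liquid. All 24 of these cultures were sampled after 6 h of growth. pRS316 is a low-copy shuttle plasmid with URA3 as its selectable marker. The labels do not define the asterisk in MSB2*, and they give neither the strain background nor the mating type, nor whether an intact chromosomal MSB2 stands beside the plasmid. The series as a whole asked how the genome responds to touch, meaning growth against a solid surface, and whether a proposed MAP-kinase pathway takes part.

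Msb2 spans the plasma membrane and acts with Sho1 and the GTPase Cdc42 at the head of the filamentous-growth MAP-kinase pathway. Its kinases Ste20, Ste11, Ste7 and Kss1 act in turn on the transcription factors Ste12 and Tec1. Known targets of Ste12 and Tec1 in yeast include PGU1, which encodes a secreted pectin-degrading enzyme, and FLO11, which encodes the adhesin that holds cells to each other and to surfaces. Many of the kinases are shared with the mating pheromone and osmotic stress pathways.

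Levels are log2 signals of Affymetrix arrays as deposited, and a change is the difference of 2 group means on that log2 scale, with its standard error (SE) from a limma fit over all 90 arrays. Below, rose and fell are used of genes with a limma adjusted p under 0.05, and a called gene also changed at least 2-fold. The 5449 genes tested are the base of all counts. The background limit of an array is the 95th percentile of its probe sets whose gene is not listed for S. cerevisiae, 5.83 to 6.00 on the MSB2* and pRS316 arrays. The 99th percentile of signal on these arrays was 14.91 to 14.93, so genes near that level have little room to rise. The MSB2* arrays lay 0.150 to 0.239 log2 (root mean square over genes) from the mean of the other arrays of their group, highest for agar B, and the pRS316 arrays 0.136 to 0.213. In the msb2 knockout on agar, A and C stood apart at 0.414 and 0.419. The spread of each gene is pooled within all 29 groups of the series, so it is not that of the compared arrays alone. The labels do not state whether the 3 arrays of a group come from separate cultures, so p values measure only the spread between samples of this series.

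MSB2 itself was measured first, as a check of the labels. It read 13.84, 14.00 and 13.86 on MSB2* agar and 14.07, 13.94 and 14.00 in MSB2* liquid, against 12.61, 12.74 and 12.94 on pRS316 agar and 12.82, 13.12 and 12.96 in pRS316 liquid. Every MSB2* array was above every pRS316 array, by 1.13 ± 0.19 log2 on agar (limma adjusted p = 7.6e-06) and 1.04 ± 0.19 in liquid (limma adjusted p = 2.9e-05). Agar and liquid did not differ by the test within MSB2*, at -0.11 ± 0.19 log2 (limma adjusted p = 0.759). MSB2 averaged 4.99 ± 0.21 on agar and 4.78 ± 0.63 in liquid in the msb2 knockout (SD, n = 3 each), below background on all 6 arrays. URA3, the plasmid marker that makes orotidine phosphate decarboxylase, was below background on all wild-type and msb2 knockout arrays, so the MSB2* strain differs from them also by the plasmid. URA3 read 12.64, 12.71 and 12.44 on MSB2* agar and 11.75, 12.17 and 11.89 in MSB2* liquid. It rose on agar by 0.66 ± 0.12 log2 in MSB2* (limma adjusted p = 1.25e-05), while in pRS316 it averaged 13.44 ± 0.17 on pRS316 agar and 13.38 ± 0.12 in pRS316 liquid (SD, n = 3 each). The difference of the agar effects, 0.60, passed but was lost when any 1 of 8 of the 12 arrays was left out. It was also lost under quantile normalization, median centring, a fit of only the arrays compared, and the replicate letter as a block. The URA3 arrays of MSB2* agar and MSB2* liquid did not overlap, and all 6 lay below the pRS316 arrays.

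Between SD agar and SD liquid, 43 genes were called higher in MSB2* (0.789% of genes tested) and 84 lower (1.54%). At any size 418 genes rose (7.67%) and 553 fell (10.1%), and the median change over all genes was 0.01. In pRS316 18.7% of all genes rose and 23.4% fell, so list counts of the 2 strains have different bases. These shares of all genes are the base against which each list count below is to be read. Genes called higher were led by CIS1, the misfolded-protein sorting genes BTN2 and CUR1, the transcription factor gene CIN5, the filamentation target PGU1 and the mating gene FUS1. Genes called lower were led by the hexose transporter HXT5, the transketolase TKL2, the stress-induced GRE1 and the methionine permease MUP1. The 3 agar arrays lay wholly on one side of the 3 liquid arrays in 126 of the 127 called genes, the exception being DAL4, an allantoin permease. The calls were made on these same arrays, so this separation adds no support to them. The share without overlap over all genes is not given here. Each called gene exceeded the background limit on at least 1 array of its lower group. With 3 arrays against 3, an exact 2-sided permutation test of a single gene cannot go below p = 0.1, so the limma fit is the only test given. In bulk RNA, a shift in the share of cells of a kind and a shift in RNA per cell cannot be told apart.

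The filamentation target PGU1 was the most strongly changed gene of its list. It read 13.53, 13.28 and 13.36 on MSB2* agar and 11.19, 10.98 and 10.88 in MSB2* liquid, against 5.85, 6.29 and 6.07 on pRS316 agar and 5.88, 6.21 and 5.86 in pRS316 liquid. All MSB2* arrays were far above background, whereas 1 of 3 pRS316 agar arrays and 2 of 3 pRS316 liquid arrays were below it. PGU1 rose on agar by 2.37 ± 0.19 log2 in MSB2* (5.18-fold, limma adjusted p = 5.26e-16). The agar effect was 0.09 ± 0.19 in pRS316, -0.01 in wild-type and -0.05 in the msb2 knockout, and none of these passed the test. Its agar effect in MSB2* was larger than that in pRS316 by 2.28 ± 0.27 (limma adjusted p = 3.63e-09). This came on top of a level already 5.04 log2 higher than pRS316 in liquid. PGU1 lay near the background limit in pRS316 and in the msb2 knockout. The sizes of its agar effects there, and of the differences from MSB2*, are therefore not well measured.

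Of the other filamentation targets, FLO11 and RSN1 also rose, HPF1 fell, and 11 of the 15 measured did not pass; the median change of the list was -0.08. RSN1 missed the test without agar B or without liquid A. HPF1, which encodes a cell wall mannoprotein, averaged 13.25 on agar and 14.68 in liquid in MSB2*, a fall of 1.42 log2 ± 0.22. Several targets that did not pass between agar and liquid were high in MSB2* on both. DDR48, a stress-induced flocculent protein, averaged 12.56 ± 0.08 on MSB2* agar and 13.08 ± 0.24 in MSB2* liquid, against 9.61 ± 0.20 on pRS316 agar and 10.82 ± 0.26 in pRS316 liquid (SD, n = 3 each). The cell wall gene SVS1 was 2.05 log2 higher in MSB2* than in pRS316 on agar and 1.63 higher in liquid, and the G1 cyclin CLN1 1.33 and 1.23 higher.

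**Figure D1:**
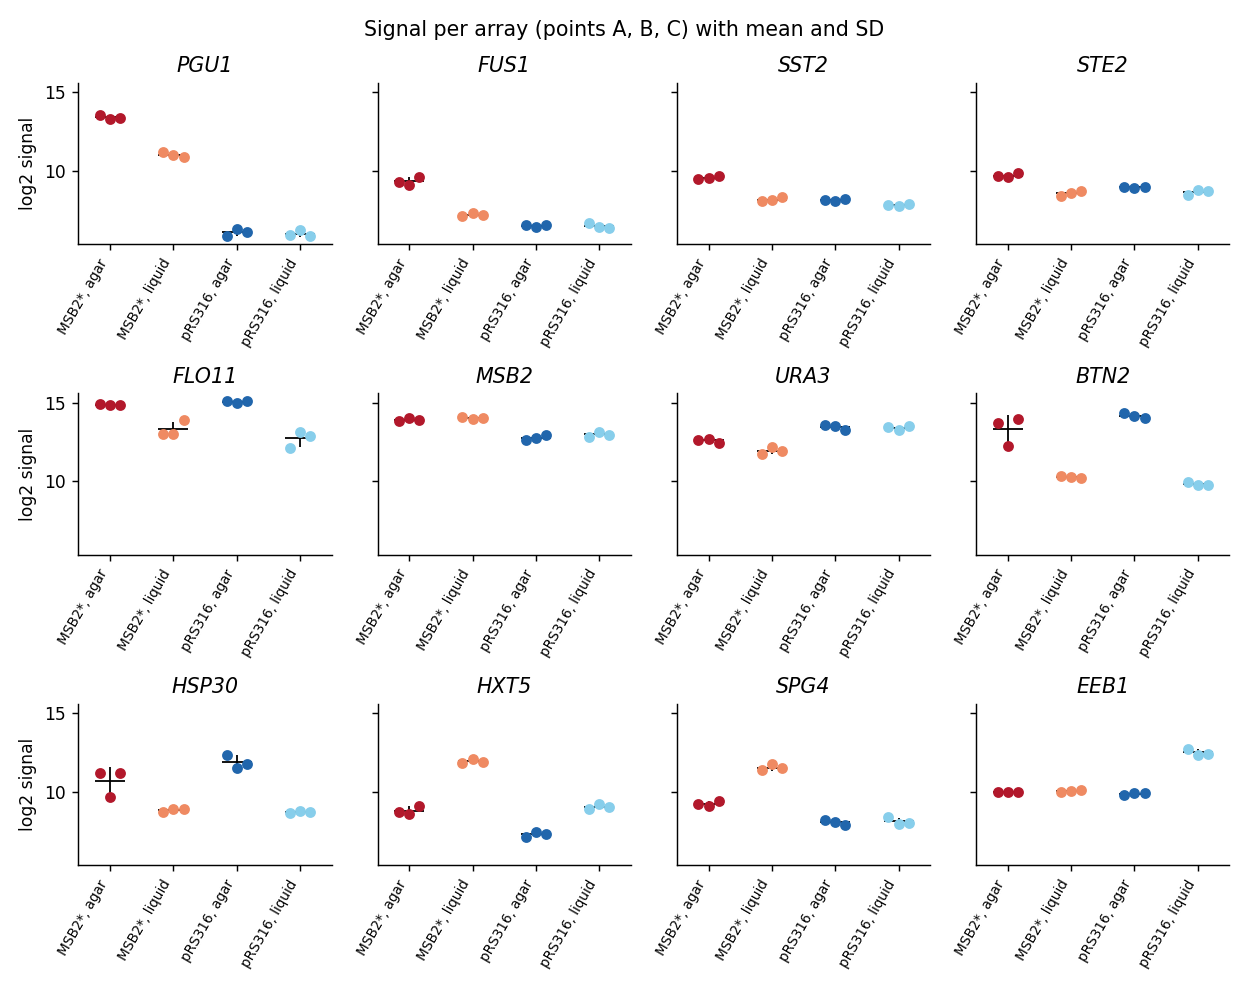
Signal (log2, y axis) on each array for 12 genes in MSB2* on agar and in liquid and in pRS316 on agar and in liquid; points are replicates A, B and C from left to right, the black tick and line are the mean and SD. PGU1 and FUS1 are higher on MSB2* agar than in any other group shown, HXT5 and SPG4 are highest in MSB2* liquid, and EEB1 is high in pRS316 liquid alone.

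The genes of the filamentation pathway themselves moved little between substrates. Of the 17 genes measured, 2 fell and 15 did not pass in MSB2*, with changes from -0.35 to 0.30 log2. The 2 that fell were the kinase genes STE20 (-0.35 ± 0.09, limma adjusted p = 0.00485) and STE11 (-0.35 ± 0.07, limma adjusted p = 6.41e-05). They changed in the same direction in pRS316, by -0.28 and -0.50. STE20 missed the test in MSB2* without agar C and in a fit of the 6 MSB2* arrays alone. The MAP kinase gene KSS1 averaged 10.75 ± 0.19 on MSB2* agar and 10.81 ± 0.09 in MSB2* liquid, against 9.21 ± 0.03 on pRS316 agar and 9.47 ± 0.06 in pRS316 liquid (SD, n = 3 each). TEC1, the transcription factor gene, averaged 12.07 ± 0.04 on MSB2* agar and 12.24 ± 0.23 in MSB2* liquid, against 10.74 ± 0.16 on pRS316 agar and 11.04 ± 0.09 in pRS316 liquid (SD, n = 3 each). For both genes the groups of the 2 strains did not overlap on either substrate, and KSS1 was 1.53 log2 higher in MSB2* than in pRS316 on agar and TEC1 1.33 higher. STE12 was 0.98 log2 higher in MSB2* than in pRS316 on agar and 0.51 higher in liquid. SHO1 and OPY2, which encode membrane partners in the pathway, were 0.63 and 0.68 higher on agar. The agar effect differed between MSB2* and pRS316 in 0 of the 17 by limma's adjusted p, and in 2 at an unadjusted p under 0.05. Over all genes, 676 of 5449 had an unadjusted p under 0.05 for this difference.

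FLO11 read 14.90, 14.85 and 14.82 on MSB2* agar and 12.99, 13.02 and 13.86 in MSB2* liquid, against 15.09, 14.99 and 15.08 on pRS316 agar and 12.14, 13.13 and 12.87 in pRS316 liquid. Agar and liquid arrays did not overlap in either strain, while the 2 strains overlapped in liquid. FLO11 rose on agar by 1.57 ± 0.29 log2 in MSB2* (limma adjusted p = 3.75e-05) and by 2.34 ± 0.29 in pRS316, and the difference of these effects did not pass (-0.78 ± 0.41, limma adjusted p = 0.427). The agar levels lay close to the 99th percentile of signal. In wild-type, FLO11 averaged 14.81 ± 0.06 on agar against 10.41 ± 0.16 in liquid, and in the msb2 knockout 15.05 ± 0.02 against 10.79 ± 0.17 (SD, n = 3 each). The agar effect of MSB2* was smaller than these by 2.83 and 2.69 log2, and both differences passed. The level in liquid was 13.29 ± 0.50 in MSB2* and 12.71 ± 0.52 in pRS316, above the wild-type and knockout levels in liquid. Of the other adhesin genes, FLO10 rose by 0.67 ± 0.20, a call lost without agar A, and FLO9 (0.12) and FLO1 (0.10) did not pass.

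Several regulators known to act on FLO11 or on invasive growth moved with the substrate. Among 20 such genes 7 rose and 2 fell, and the median change was 0.19. Without agar C or without liquid C 4 rose, and NRG1 missed the test without agar C. MGA1 rose by 1.26 ± 0.32, SFG1 by 1.11 ± 0.15, PHD1 by 1.09 ± 0.19 and NRG1 by 1.03 ± 0.29 log2. MGA1, SFG1 and PHD1 are transcription factor genes of pseudohyphal growth and NRG1 encodes a glucose-dependent repressor. PHD1 read 9.79, 10.42 and 10.77 on MSB2* agar and 9.42, 9.45 and 8.85 in MSB2* liquid, with no overlap. In pRS316 the same 4 genes rose by 1.79, 0.76, 0.85 and 1.35. ASH1, which encodes a daughter-cell transcription factor, fell by 0.70 log2 ± 0.11 and the pH-response regulator RIM101 fell by 0.55 log2 ± 0.07. Of 16 genes of cAMP and protein kinase A signalling, none rose and 7 fell, led by GPG1 at -1.89 ± 0.22 and by the phosphodiesterase genes PDE2 (-0.63) and PDE1 (-0.51). GPG1 encodes a subunit that interacts with the G protein alpha subunit Gpa2. Without agar B 4 of the 16 fell and 1 rose. With all arrays, 10.1% of all genes fell and 7.67% rose in MSB2*.

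Genes of the pheromone response split. Among 21 genes 5 rose and 5 fell, and the median change was 0.06. Without agar C, or without any 1 of the 3 liquid arrays, 3 rose. FUS1, needed for cell fusion in mating, read 9.29, 9.07 and 9.58 on MSB2* agar and 7.09, 7.28 and 7.15 in MSB2* liquid, against 6.54, 6.41 and 6.52 on pRS316 agar and 6.67, 6.41 and 6.37 in pRS316 liquid. The agar arrays of MSB2* stood above all other arrays, and FUS1 rose by 2.14 ± 0.17 log2 in MSB2* (limma adjusted p = 4.24e-16), against 0.00 ± 0.17 in pRS316. SST2, which encodes the GTPase activator that dampens pheromone signalling, read 9.46, 9.51 and 9.69 on MSB2* agar and 8.04, 8.11 and 8.29 in MSB2* liquid. Its rise of 1.40 ± 0.12 in MSB2* compared with 0.31 ± 0.12 in pRS316, and the difference passed (1.09 ± 0.17, limma adjusted p = 6.47e-06). AGA1, an agglutinin subunit, rose by 0.91 ± 0.20. PRM8, PRM1, CHS1, MSG5 and GIC2 fell, led by PRM8 at -0.73 ± 0.12, but GIC2 missed the test when any 1 of the 6 MSB2* arrays was left out and under median centring. PRM1 (a membrane fusion gene) was higher in MSB2* than in pRS316 by 1.38 log2 on agar and 1.75 in liquid. The agar effect differed from pRS316 in 3 of the 21 genes, all upward: FUS1, SST2 and PRM4.

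Markers of cell identity were read alongside. Of 7 a-cell markers, STE2, the alpha-factor receptor gene, rose by 1.12 ± 0.15 log2 (limma adjusted p = 2.38e-08) and the other 6 did not pass. STE2 read 9.62, 9.58 and 9.83 on MSB2* agar and 8.41, 8.57 and 8.69 in MSB2* liquid, and its agar effect exceeded that in pRS316 by 0.79 (limma adjusted p = 0.0303). Of 4 alpha-cell markers, the pheromone gene MF(ALPHA)1 rose by 0.89 ± 0.23, averaging 7.09 on MSB2* agar and 6.20 in MSB2* liquid; it was below background on all 6 pRS316 arrays. The mean signal of the 7 a-cell markers was 7.52 to 7.77 on MSB2* agar and 7.39 to 7.51 in MSB2* liquid, and that of the 4 alpha-cell markers 8.35 to 8.39 on agar and 7.996 to 8.10 in liquid. The receptor genes STE2 and STE3 were both above background on every MSB2* array. Of 8 sporulation markers, SPS4 rose by 1.94 ± 0.23, NDT80 fell by 0.91 log2 ± 0.15, and SPO11 and SPR3 stayed near 5.06 and 4.57 on MSB2* agar, under the background limit. SMK1 passed at 0.33 ± 0.12, but not when any 1 of the 6 MSB2* arrays was left out, nor under quantile normalization or median centring. The part of these markers in the other results was not tested.

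Among 25 genes of a heat shock chaperone list 11 rose and 1 fell, and the median change was 0.24. They are called chaperone genes below, though HSP30 and YRO2 among them encode plasma membrane proteins. Of the 43 genes called higher, 3 were on this list: BTN2, CUR1 and HSP30. BTN2 read 13.67, 12.23 and 13.97 on MSB2* agar and 10.33, 10.26 and 10.20 in MSB2* liquid, a rise of 3.03 ± 0.34 log2 (limma adjusted p = 2.55e-10). CUR1 rose by 2.45 ± 0.31, the membrane protein gene HSP30 by 1.85 ± 0.54 and FES1, an exchange factor of Hsp70, by 0.91 ± 0.15. HSP42, a small heat shock protein gene counted in the general stress list, read 13.99, 13.11 and 13.96 on MSB2* agar and 12.10, 11.75 and 12.03 in MSB2* liquid. APJ1, a J-protein gene outside the list, rose by 1.72 ± 0.17. RPN4, which encodes the activator of proteasome genes, rose by 1.34 ± 0.17, while 31 of the 32 genes of the proteasome list did not pass and had a list median of -0.01. In pRS316, 15 chaperone genes rose and 1 fell, with a median of 0.63. The agar effect differed between strains in 0 of the 25 by limma's adjusted p. At an unadjusted p under 0.05 it differed in 4, against 676 of all 5449 genes. The single fall in MSB2*, of YRO2, rested on liquid arrays of 10.72, 7.996 and 10.85 set against agar arrays of 7.42, 7.20 and 7.31, and it did not pass in a fit of the 6 MSB2* arrays alone.

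The agar B array was the low one among the MSB2* agar arrays in these genes. The mean signal of the 25 chaperone genes was 12.95, 12.38 and 12.97 on MSB2* agar A, B and C and 12.43, 12.28 and 12.31 in MSB2* liquid. Agar B thus lay between the liquid arrays, and the agar and liquid groups overlapped on this mean. Without agar B the same number of chaperone genes, 11, rose and the list median was 0.58, while 7 rose without agar A or without liquid C and 5 without agar C. HSP30 and the glycogen synthase gene GSY1 lost significance without agar A or without agar C. Over 24 general stress genes agar B was low again, with mean signals of 12.14, 11.36 and 12.23 on MSB2* agar and 12.28, 12.16 and 12.19 in MSB2* liquid. Of those 24, 3 rose and 7 fell; without agar A or agar C 1 rose, and without agar B 5 fell. The median of the general stress list was -0.18 with all arrays and 0.02 without agar B.

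**Figure D2:**
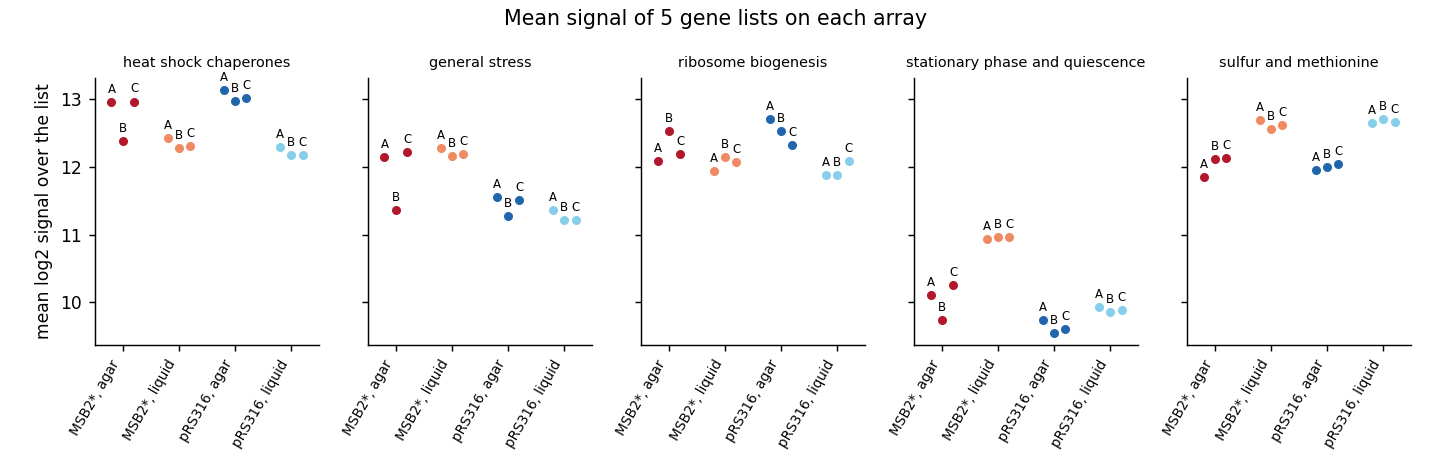
Mean log2 signal (y axis) over 5 gene lists on each array, labelled A to C, of MSB2* on agar and in liquid and pRS316 on agar and in liquid. In MSB2* on agar, B is low in the chaperone and general stress lists and high in the ribosome biogenesis list, whereas the stationary phase and sulfur lists separate agar from liquid on every MSB2* array.

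Ribosome biogenesis genes showed the opposite order of the same arrays. Their mean signal was 12.09, 12.53 and 12.19 on MSB2* agar A, B and C and 11.94, 12.14 and 12.07 in MSB2* liquid, so the groups overlapped. Of 50 measured, 11 rose and 1 fell, with a median of 0.24, led by NOP7 (0.80 ± 0.20), KRR1 (0.71 ± 0.21) and MAK21 (0.69 ± 0.24), while NOG2 fell by 0.79 log2 ± 0.21. MAK21 missed the test without any 1 of 5 of the 6 MSB2* arrays, KRR1 without agar B, and NOG2 without agar A. NOP7, KRR1 and MAK21 are needed for assembly of ribosomal subunits. Without agar B 2 rose and 2 fell and the median was 0.10, without liquid A 5 rose and without liquid B 7. In pRS316, 34 of these genes rose and 0 fell, with a median of 0.57. The difference between strains passed in 0 of 50 by limma's adjusted p. At an unadjusted p under 0.05 it passed in 3, against 676 of all 5449 genes. Among 128 cytosolic ribosomal protein genes, 10 rose and 1 fell in MSB2*, with a median of 0.04; 7.67% of all genes rose, so the list held about as many rises as its size gives. Without agar B or without liquid B 5 rose, and without liquid C 6. RPL24B changed most of these, by 0.45 ± 0.11. Many ribosomal protein genes have a near-identical copy, and probes may not separate the copies.

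Genes of stationary phase and quiescence had the lowest median of the 40 lists, -0.92, with 11 of 20 lower and 2 higher by the test; without agar A, agar C or liquid B none was higher. On the mean of the list, MSB2* agar arrays read 10.11, 9.74 and 10.25 and MSB2* liquid arrays 10.94, 10.97 and 10.97, without overlap. SPG4, known for survival in stationary phase at high temperature, read 9.19, 9.07 and 9.42 on MSB2* agar and 11.34, 11.74 and 11.48 in MSB2* liquid, against 8.18, 8.04 and 7.89 on pRS316 agar and 8.36, 7.96 and 8.01 in pRS316 liquid. It fell by 2.29 log2 ± 0.24 in MSB2* (limma adjusted p = 2.32e-11), and the agar effect was -0.08 in pRS316. GRE1 fell by 2.64 log2 ± 0.31, FMP45 by 2.10 log2 ± 0.29 and HSP12, a membrane-protecting stress protein gene, by 1.58 log2 ± 0.37. YGP1, a secreted glycoprotein gene, fell by 2.31 log2 ± 0.43, with the liquid B array at 11.82 between the agar arrays and the other liquid arrays, at 13.40 and 13.52. In pRS316, 5 of the 20 fell and 2 rose, with a median of -0.19, where 23.4% of all genes fell and 18.7% rose. The agar effect was lower in MSB2* than in pRS316 for 3 of the list, GRE1, SPG4 and SPG1. The difference for GRE1 missed the test when any 1 of the 12 arrays was left out.

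Several carbon genes that glucose normally holds down also fell. HXT5, a hexose transporter of slow-growing cells, read 8.68, 8.56 and 9.10 on MSB2* agar and 11.82, 12.10 and 11.85 in MSB2* liquid, against 7.13, 7.39 and 7.28 on pRS316 agar and 8.91, 9.22 and 9.00 in pRS316 liquid. The 4 groups did not overlap except for MSB2* agar with pRS316 liquid. HXT5 fell by 3.15 log2 ± 0.23 in MSB2* and by 1.77 log2 ± 0.23 in pRS316 (difference -1.37 ± 0.32, limma adjusted p = 0.00966). Of 24 genes of gluconeogenesis, the glyoxylate cycle and acetate use, none rose and 7 fell, with a median of -0.40. They were led by the acetate transporter ATO2 (-1.82 ± 0.30), the succinate-fumarate carrier SFC1 (-1.52 ± 0.28), acetyl-CoA synthetase ACS1 (-1.38 ± 0.20) and the lactate permease JEN1 (-1.17 ± 0.19). Only 13 of the 24 remained with the dimmest genes left out, and of these none rose and 4 fell in MSB2*. Their median was -0.07 in MSB2* and -0.08 in pRS316, so the median of -0.40 depended on the dimmer genes. The same 24 genes held 9 falls and 5 rises in pRS316, with a median of -0.30. Of all genes, 23.4% fell and 18.7% rose in pRS316. Of 20 glycolysis and fermentation genes 5 fell, led by TDH1 (-1.59 ± 0.22), but 2 fell without agar B and 3 without liquid C. Of 15 citrate cycle genes 4 fell, led by LSC2 (-0.60 ± 0.12). TKL2 (-2.88 ± 0.31) and the transaldolase gene NQM1 (-2.21 ± 0.24), minor pentose phosphate enzymes, fell as well.

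SUC2, the invertase gene, went the other way. It read 12.30, 12.21 and 12.65 on MSB2* agar and 10.78, 11.22 and 11.78 in MSB2* liquid, against 9.80, 9.73 and 9.93 on pRS316 agar and 10.08, 10.45 and 10.45 in pRS316 liquid. It rose in MSB2* by 1.13 ± 0.23 (limma adjusted p = 0.000121) and did not pass in pRS316 (-0.51 ± 0.23, limma adjusted p = 0.0638). Of 23 hexose transport and glucose sensing genes, 2 rose (SUC2 and the hexokinase HXK2, 0.37 ± 0.05) and 2 fell (HXT5 and the repressor MIG1, -0.56 ± 0.19). Both counts are near the shares of all genes, 7.67% and 10.1%. MIG1 missed the test without any 1 of 5 of the 6 MSB2* arrays.

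Osmotic stress genes held 2 of the sharpest falls. STL1, a glycerol symporter, read 7.95, 7.77 and 8.05 on MSB2* agar and 10.46, 10.59 and 10.11 in MSB2* liquid, against 6.07, 5.98 and 6.47 on pRS316 agar and 7.05, 7.31 and 6.71 in pRS316 liquid. It fell by 2.46 log2 ± 0.20 in MSB2* and by 0.85 log2 ± 0.20 in pRS316, and MSB2* lay above pRS316 on both substrates. GRE1 read 8.58, 8.61 and 8.72 on MSB2* agar and 11.14, 11.62 and 11.07 in MSB2* liquid. In all, 5 of 21 osmotic stress genes fell, 2 rose and 14 did not pass; 1 rose without agar C, liquid A or liquid B. The difference from pRS316 passed in 3, all downward, for GRE1, STL1 and the glycerol phosphatase GPP1 (-0.25), of which GRE1 did not pass with any array left out. STL1 and GRE1 were higher in MSB2* than in pRS316 in liquid, by 3.36 and 2.58 log2.

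Sulfur and methionine genes fell in both strains. In MSB2* 17 of 32 fell and 1 rose, with a median of -0.36, and in pRS316 23 fell and 1 rose, with a median of -0.44. Falls made up 10.1% of all genes in MSB2* and 23.4% in pRS316. MUP1 read 10.37, 11.16 and 11.06 on MSB2* agar and 13.57, 13.34 and 13.39 in MSB2* liquid, a fall of 2.57 log2 ± 0.30 without overlap. JLP1, which releases sulfite from sulfonates, fell by 2.53 log2 ± 0.17, the cystathionine lyase gene STR3 by 1.92 log2 ± 0.30 and MET1 by 1.17 log2 ± 0.23. The gene that rose was BDS1, an alkyl sulfatase, at 14.11, 14.08 and 14.23 on MSB2* agar and 13.41, 13.72 and 13.01 in MSB2* liquid. It was also the sulfur gene whose agar effect differed between strains, by -1.42 ± 0.25, since pRS316 averaged 13.15 on agar and 10.97 in liquid.

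Nitrogen genes moved in both directions. Of 31 genes under nitrogen catabolite repression, 7 rose and 6 fell, with a median of 0.01. The allantoin permease DAL4 rose by 1.26 ± 0.41, the GATA activator GAT1 by 1.20 ± 0.20 and the ammonium permease MEP1 by 0.98 ± 0.15, while the vacuolar protease gene PRB1 fell by 0.90 log2 ± 0.13. Without agar A or without liquid A 3 rose and DAL4 did not pass, and without liquid B 3 fell. Of 40 amino acid synthesis genes under the activator Gcn4, 8 fell and none rose in MSB2*, none by more than ARG4 (-0.50 ± 0.07), and 4 to 6 fell when a single MSB2* array was left out. In pRS316 25 fell and 2 rose, where 10.1% of all genes fell in MSB2* and 23.4% in pRS316. The difference between strains passed in 0 of the 40 by limma's adjusted p. At an unadjusted p under 0.05 it passed in 12, against 676 of all 5449 genes. Of 17 amino acid permease and transporter genes, 5 fell and 2 rose, led by BAP2 (-1.65 ± 0.27), a permease for branched-chain amino acids; none rose without liquid A.

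Cell wall genes fell more often than they rose. Among 34 genes 10 fell and 3 rose, and the median was -0.07. YPS3, a surface aspartic protease gene, fell by 1.78 log2 ± 0.27, the wall protein gene PIR3 by 1.68 log2 ± 0.37 and the glucan synthase gene GSC2 by 1.29 log2 ± 0.18. TIR1, a wall mannoprotein gene of cold and low-oxygen growth, read 10.75, 10.69 and 10.59 on MSB2* agar and 9.41, 9.59 and 9.43 in MSB2* liquid, a rise of 1.20 ± 0.15. TIR3, of the same family, rose by 0.97 ± 0.24, but its level on MSB2* agar was 1.15 log2 below that on pRS316 agar. Of 20 low-oxygen genes, TIR1, TIR3 and the mitochondrial carrier AAC3 rose and the desaturase OLE1 fell; none of the 20 fell without agar C or without liquid C.

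Among metal and phosphate genes, 4 of 29 iron genes rose and 5 fell in MSB2*, and in pRS316 2 rose and 15 fell. Of all genes, 10.1% fell in MSB2* and 23.4% in pRS316. Without agar A or without liquid B 2 fell in MSB2*, and without liquid C 3. TIS11, an mRNA-decay factor induced by iron shortage, fell by 1.19 log2 ± 0.37, a call lost without agar B or without liquid C, and the related gene CTH1 rose by 0.94 ± 0.11. The iron genes with a higher agar effect than in pRS316 were FRE3 (1.06), ISU2 (0.55) and ENB1 (1.03). Of 16 zinc genes, 2 rose and 3 fell, led by IZH1 (-1.03 ± 0.17), and without liquid A none rose. Of 21 phosphate genes, 1 rose and 3 fell, led by the phosphate transporter PHO84 (-1.57 ± 0.30), which read 7.69, 9.27 and 8.55 on MSB2* agar and 9.63, 9.98 and 10.61 in MSB2* liquid. Without liquid A 5 phosphate genes fell. The base for the zinc and phosphate counts is again the share of all genes in MSB2*, of which 7.67% rose and 10.1% fell.

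Among 24 genes of mitosis and early G1, 9 fell and 4 rose, led by the daughter-cell glucanase SCW11 (-1.01 ± 0.19); 2 rose without agar A, agar C, liquid B or liquid C. In G1/S genes 3 of 23 fell and none rose, led by the cyclin PCL1 (-1.23 ± 0.25), where 10.1% of all genes fell and 7.67% rose. Of 22 bud site and polarity genes 4 fell, led by BUD9 (-0.45 ± 0.10), and 2 fell without agar C or without liquid B. Of 9 histone genes HTA1 (-0.27) and HTA2 (-0.20), near-identical copies, fell. Of 22 vitamin genes 6 fell and 1 rose, led by the thiamine synthesis gene THI4 (-1.34 ± 0.22). Of 20 trehalose and glycogen genes 2 rose and 2 fell, near the shares of all genes (7.67% and 10.1%). GSY1 changed by 1.35 ± 0.40 and the glycogen phosphorylase GPH1 by -1.22 ± 0.40. None rose without agar A or without agar C, and GPH1 missed the test without agar B or without any 1 liquid array. Of 34 respiratory chain genes 5 fell and none rose, led by the NADH dehydrogenase NDE2 (-1.16 ± 0.13), and 3 fell when any 1 array other than liquid C was left out. In pRS316 9 respiratory chain genes rose and 5 fell, where 18.7% of all genes rose and 23.4% fell. The difference between strains passed in 0 of the 34 by limma's adjusted p. At an unadjusted p under 0.05 it passed in 7, against 676 of all 5449 genes. Of 25 ergosterol genes 1 rose and 1 fell in MSB2*, none rose and 11 fell in pRS316 (10.1% of all genes fell in MSB2* and 23.4% in pRS316), and the difference passed in 1. The rise in MSB2* was lost without any 1 array other than agar A. Of 18 genes of branched-chain and fusel alcohol metabolism 2 rose and 4 fell, but 1 fell without agar B and 2 without liquid C. Of 7 galactose genes 1 rose, and none without agar C or without liquid A. That gene, GAL7, averaged 6.45 on MSB2* agar and 5.65 in MSB2* liquid, where all 3 arrays were below background, so it was at least 1.51-fold higher (limma adjusted p = 0.0107); the bound compares the agar mean with the lowest level counted as above background.

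**Figure D3:**
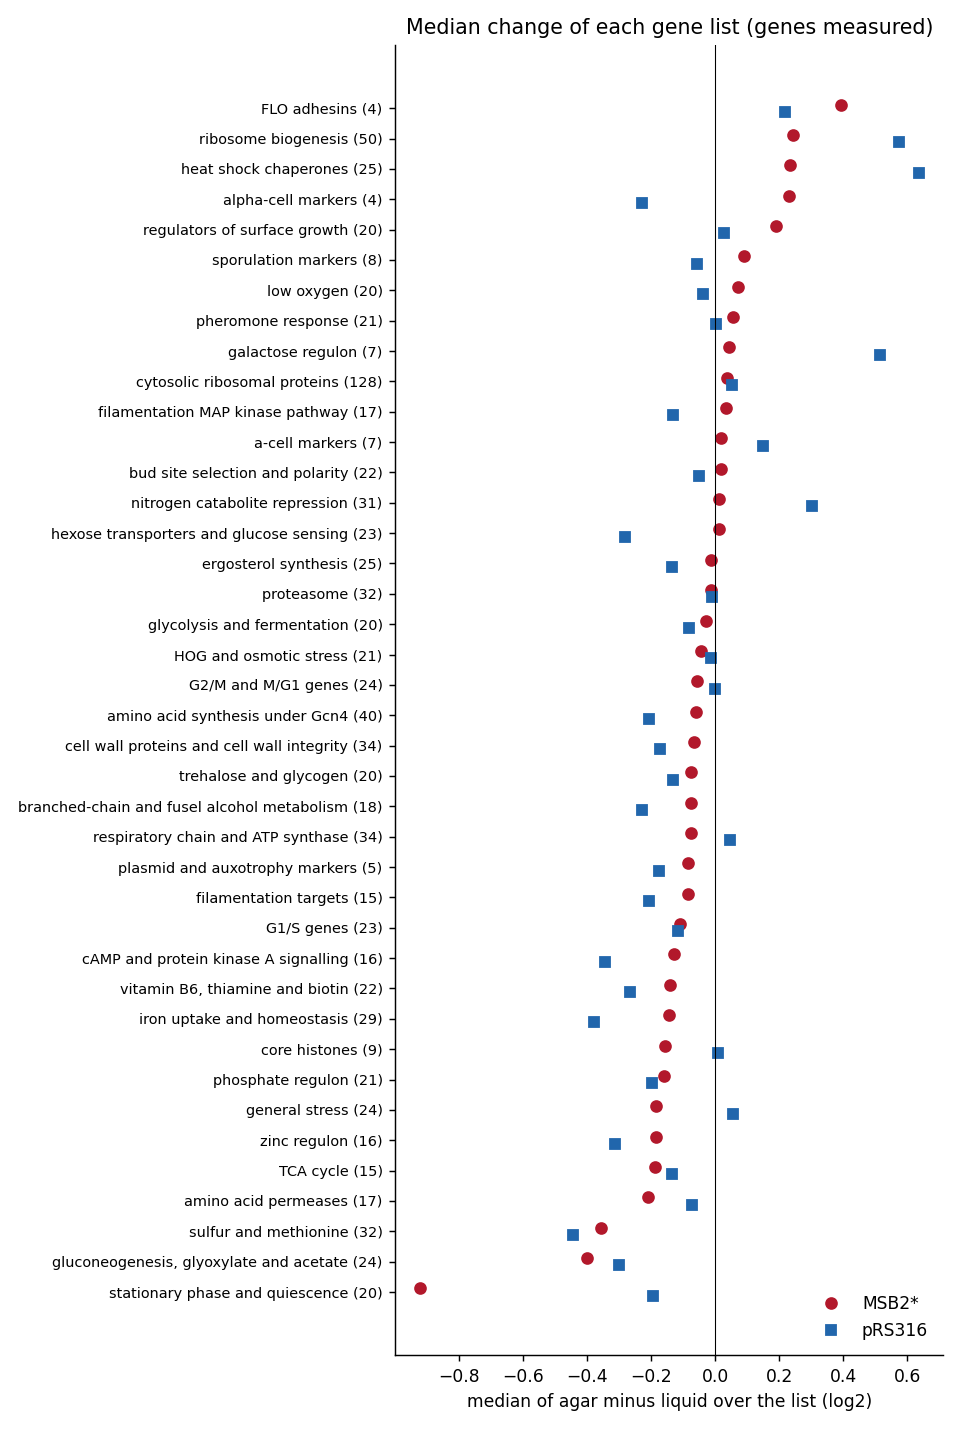
Median agar-minus-liquid change (log2, x axis) over each of 40 gene lists, with the number of genes measured in brackets; circles are MSB2* and squares pRS316. The stationary phase list lies furthest from 0 in MSB2*, at -0.92, and the chaperone and ribosome biogenesis lists are higher in pRS316 (0.63 and 0.57) than in MSB2* (0.24 each).

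With the empty plasmid, 143 genes were called higher on agar (2.62%) and 123 lower (2.26%), and at any size 1020 rose (18.7%) and 1277 fell (23.4%). The comparisons in MSB2* and in pRS316 share no arrays. Of the genes called higher on agar, 28 were called in both strains, 65.1% of the MSB2* calls and 19.6% of the pRS316 calls. Of those called lower, 53 were called in both, 63.1% of the MSB2* calls and 43.1% of the pRS316 calls. At any size, 35 of the 43 genes called higher in MSB2* and 70 of the 84 called lower passed in the same direction in pRS316, and 0 passed in the opposite direction. Across genes, which are not independent replicates, the agar effects of the 2 strains had a Pearson correlation of 0.761 over 5449 genes, and their SD over genes was 0.370 in MSB2* and 0.486 in pRS316. CIS1 rose in both strains. It read 9.69, 9.72 and 10.10 on MSB2* agar and 6.66, 6.60 and 6.57 in MSB2* liquid, a rise of 3.22 ± 0.24, and the rise in pRS316 was 3.37 ± 0.24. The difference was -0.15 ± 0.34 (limma adjusted p = 0.876).

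**Figure D4:**
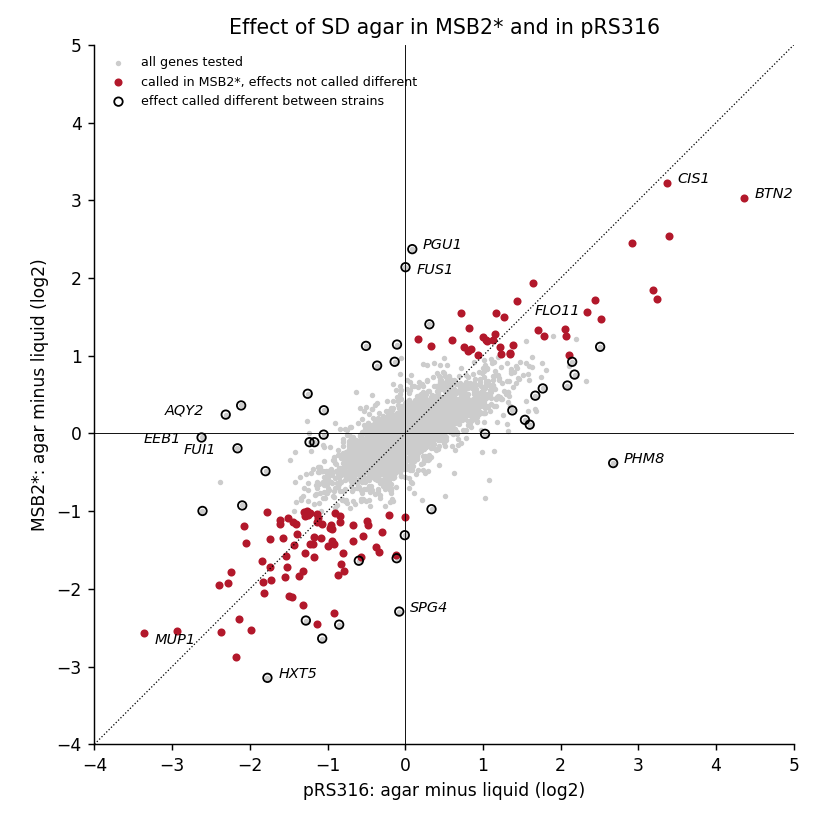
Agar-minus-liquid change (log2) of each of 5449 genes in MSB2* (y axis) and in pRS316 (x axis), with the dotted line marking equal effects. Red points are genes called in MSB2* whose effect was not called different between strains, and open circles are the 39 genes whose effect was called different between strains, among them PGU1 and FUS1 near 0 on the x axis and EEB1 and AQY2 near 0 on the y axis.

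The agar effect was called higher in MSB2* than in pRS316 for 19 genes (0.349% of genes tested) and lower for 20 (0.367%). Among the 19, MSB2* and pRS316 differed at least 2-fold on agar alone in 8, in liquid alone in 7, on both in 2 and on neither in 2. Among these 19, 5 were called higher on agar in MSB2* (PGU1, FUS1, SST2, SUC2 and RPI1) and 12 were called lower on agar in pRS316. Among the 20, the strains differed in liquid alone in 11, on agar alone in 3, on both in 4 and on neither in 2, and 8 were called lower on agar in MSB2* while 11 were called higher on agar in pRS316.

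Genes that dropped on agar in pRS316 but not in MSB2* included EEB1, which encodes an enzyme of ethyl ester synthesis. EEB1 read 9.94, 10.00 and 10.00 on MSB2* agar and 9.94, 10.06 and 10.09 in MSB2* liquid, against 9.77, 9.90 and 9.94 on pRS316 agar and 12.72, 12.34 and 12.39 in pRS316 liquid. Only the pRS316 liquid arrays stood apart, and the difference of effects was 2.57 ± 0.26 (limma adjusted p = 6.12e-11). EEB1 fell on agar by 2.39 log2 in wild-type and by 2.28 in the msb2 knockout. AQY2, a water channel gene, averaged 7.89 ± 0.05 on MSB2* agar and 7.64 ± 0.18 in MSB2* liquid, against 8.72 ± 0.28 on pRS316 agar and 11.03 ± 0.36 in pRS316 liquid (SD, n = 3 each), a difference of effects of 2.55 ± 0.40. TPO4, a polyamine transporter gene, had a difference of 1.35 ± 0.32, which missed the test without MSB2* agar C.

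For FUI1 and PHM8 the strains parted mainly on agar, and for POX1 on both substrates. FUI1, the uridine permease gene, read 13.15, 13.62 and 13.27 on MSB2* agar and 13.52, 13.70 and 13.39 in MSB2* liquid, against 11.04, 11.14 and 11.33 on pRS316 agar and 13.10, 13.47 and 13.41 in pRS316 liquid. The pRS316 agar arrays were the low ones, and the difference of effects was 1.97 ± 0.22 (limma adjusted p = 2.08e-09). POX1, the peroxisomal acyl-CoA oxidase gene, averaged 9.40 ± 0.40 on MSB2* agar and 10.40 ± 0.09 in MSB2* liquid, against 6.59 ± 0.12 on pRS316 agar and 9.20 ± 0.17 in pRS316 liquid (SD, n = 3 each). PHM8, a phosphatase gene of the phosphate list, read 6.53, 5.92 and 6.68 on MSB2* agar and 6.79, 6.67 and 6.82 in MSB2* liquid, against 9.09, 8.29 and 8.62 on pRS316 agar and 6.26, 5.80 and 5.91 in pRS316 liquid. PHM8 was high on the pRS316 agar arrays alone, with the most negative difference of effects, -3.06 ± 0.44 (limma adjusted p = 1.6e-06). The pRS316 liquid arrays and MSB2* agar B lay near the background limit, so the size of this difference is not well measured. Further negative differences, not sorted here by substrate, were ALD3, an aldehyde dehydrogenase gene, at -1.50 ± 0.34, ECL1 at -1.47 ± 0.41, GRE1 at -1.57 ± 0.44 and FMP48 at -1.39 ± 0.38. ALD3 missed the test without MSB2* agar B. FMP48 missed it when any 1 of 10 of the 12 arrays was left out and ECL1 when any 1 of 9 was, and ECL1 also under median centring and with the dimmest genes left out.

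Set directly against pRS316, MSB2* had 73 genes called higher (1.34%) and 18 lower (0.33%) on agar, and 114 higher (2.09%) and 32 lower (0.587%) in liquid. On agar the largest were PGU1 (7.32 ± 0.19), TIP1 (3.10 ± 0.35), DDR48 (2.95 ± 0.25) and FUS1 (2.83 ± 0.17), against PHM8 (-2.29 ± 0.31), TAT2 (-2.21 ± 0.20), FRE7 (-1.75 ± 0.20) and PRM7 (-1.62 ± 0.33). TIP1 encodes a wall mannoprotein, TAT2 the tryptophan permease and FRE7 a metal reductase. In liquid they were PGU1 (5.04 ± 0.19), SPG4 (3.41 ± 0.24), STL1 (3.36 ± 0.20) and HXT5 (2.88 ± 0.23), against AQY2 (-3.39 ± 0.29), TAT2 (-2.74 ± 0.20), FIT2 (-2.53 ± 0.47) and EEB1 (-2.46 ± 0.18). FIT2 encodes a wall protein that retains siderophore iron. TIP1 and TAT2 differed between strains on both substrates and did not pass between agar and liquid within MSB2*.

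Against wild-type, the agar effect of MSB2* was called higher for 139 genes (2.55%) and lower for 139 (2.55%). Wild-type lacks the plasmid, and against the empty plasmid only 39 genes were called. Of the genes named here, HSP30, HSP42 and JLP1 did not pass as different from pRS316. HSP30, TOS8, HSP42 and TDA6 led upward. HSP30 averaged 10.67 ± 0.87 on MSB2* agar and 8.82 ± 0.13 in MSB2* liquid, against 9.64 ± 0.85 on wild-type agar and 13.40 ± 0.37 in wild-type liquid (SD, n = 3 each), a difference of effects of 5.61 log2. HSP42 differed by 3.67, TOS8 by 3.97 and TDA6 by 3.63. HSP42 ranged from 7.74 to 10.82 over the wild-type agar arrays, a spread wider than that of the MSB2* agar arrays. Among the most negative differences were FMP23 (-3.99), OSW2 (-3.37) and JLP1 (-3.32). BSC1 passed in the same direction but was below background on all 6 MSB2* arrays and on the wild-type liquid arrays, so the only arrays of these groups on which it was measured above background were those of wild-type agar and its difference has no measured size. FMP23 averaged 8.53 on MSB2* agar and 8.27 in MSB2* liquid, against 10.15 on wild-type agar and 5.91 in wild-type liquid.

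Against the msb2 knockout, the agar effect was called higher for 51 genes (0.936%) and lower for 111 (2.04%). MIG3 (3.51), HXT1 (3.35), FUS1 (2.46) and PGU1 (2.42) led upward, and YGP1 (-3.54), SRO9 (-2.74) and FLO11 (-2.69) downward, with BSC1 again below background on all MSB2* arrays and in knockout liquid. SRO9 missed the test without MSB2* agar A, MSB2* liquid A or knockout liquid C, and HXT1 missed it in a fit of only the MSB2* and knockout arrays. HXT1, a low-affinity glucose transporter gene, averaged 9.86 ± 0.11 on MSB2* agar and 9.67 ± 0.84 in MSB2* liquid (SD, n = 3 each), while it read 13.04, 10.57 and 9.31 on knockout agar and 14.12, 14.14 and 14.13 in knockout liquid. Without knockout agar A the counts were 64 higher and 170 lower, and without knockout agar C 46 higher and 78 lower. FUS1 averaged 6.07 ± 0.25 on knockout agar and 6.39 ± 0.03 in knockout liquid, and PGU1 6.01 ± 0.26 on knockout agar and 6.06 ± 0.17 in knockout liquid (SD, n = 3 each), close to the pRS316 levels.

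**Figure D5:**
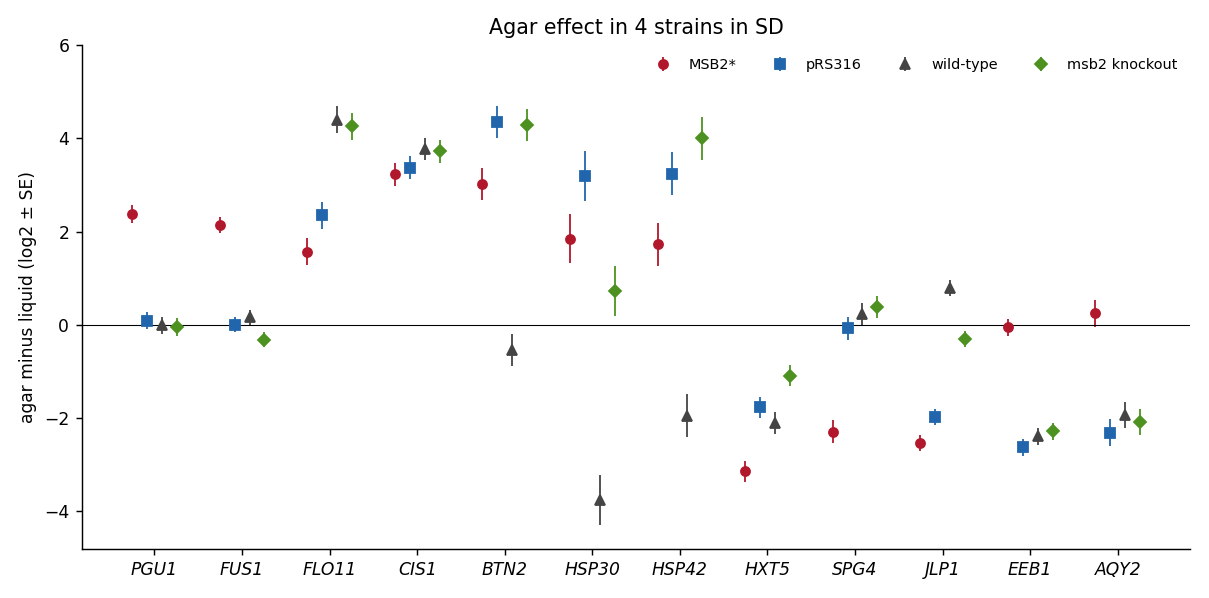
Agar-minus-liquid change (log2 ± SE, y axis) of 12 genes in MSB2*, pRS316, wild-type and the msb2 knockout, each from 3 agar and 3 liquid arrays. PGU1 and FUS1 lie above 2 in MSB2* and near 0 in the other strains. There FUS1 was below background on all wild-type arrays, and PGU1 lay near the background limit in pRS316 and the knockout. CIS1 lies between 3.22 and 3.77 in all 4, and EEB1 and AQY2 lie near 0 in MSB2* and near -2 or below in the others.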

How the data were processed

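RNA from cells frozen in acid phenol was labelled with biotin for Affymetrix arrays, per the labels. The deposited values are log2 signals of 10928 probe sets, made by the authors with RMA, per the submitters' processing notes; no version is given in the sources used here. Of the probe sets, 7244 name 1 gene, 1 names several and 3683 name none; 5498 name an S. cerevisiae gene. The brightest probe set was used for 47 genes with several, leaving 5449 genes, of which 118 have probe sets that may cross-hybridise. All 90 arrays entered a single linear model with 1 mean for each of 29 groups, fitted with limma 3.58.1 in R 4.3.3, with a 2-sided test and Benjamini-Hochberg adjustment over all genes. The median SE of the MSB2* change was 0.126 log2, and the number of arrays limits precision. The steps were tested on simulated data.

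The comparisons, the members and the 40 gene lists were chosen with earlier results of these data known. Genes were named by rank: in MSB2* the 15 largest called rises and falls without overlap, 8 each way in the difference from pRS316, 4 each way in the other comparisons, all pathway genes, FLO11, PGU1, URA3, MSB2, and up to 5 members of each list by size of change. SVS1, CLN1, CHS1, MSG5, PRM4, RIM101, OLE1, GPP1, SPG1, SPO11, SPR3, RPI1, ISU2 and ENB1 were named after their values were seen. Alternatives were quantile normalization, median centring, leaving out the dimmest 25% of genes, averaging probe sets, no fold threshold, fitting only the arrays compared, the replicate letter as a block, and leaving out each array; list counts with an array left out were added after seeing the data.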

Additional observations from a re-analysis of the deposited data

Results flagged for a closer look

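The agar effect differed between MSB2* and another strain by a test of the difference itself in the following results, with the values given as MSB2* minus the other strain on the log2 scale.

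Against pRS316, 19 genes were higher and 20 lower. The named ones were EEB1 (2.57), AQY2 (2.55), PGU1 (2.28), FUS1 (2.14), FUI1 (1.97), SUC2 (1.63), POX1 (1.61) and TPO4 (1.35) upward, and PHM8 (-3.06), SPG4 (-2.22), STL1 (-1.61), GRE1 (-1.57), ALD3 (-1.50), ECL1 (-1.47), BDS1 (-1.42) and FMP48 (-1.39) downward. GRE1 missed the test when any 1 of the 12 arrays was left out.

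Against wild-type, 139 genes were higher and 139 lower, led by HSP30 (5.61), TOS8 (3.97), HSP42 (3.67) and TDA6 (3.63) upward and FMP23 (-3.99), BSC1 (-3.54), OSW2 (-3.37) and JLP1 (-3.32) downward. Wild-type lacks the plasmid, and HSP30, HSP42 and JLP1 did not pass as different from pRS316.

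Against the msb2 knockout, 51 genes were higher and 111 lower, led by MIG3 (3.51), HXT1 (3.35), FUS1 (2.46) and PGU1 (2.42) upward and YGP1 (-3.54), BSC1 (-3.03), SRO9 (-2.74) and FLO11 (-2.69) downward. Of the knockout agar arrays, A and C stood apart from the others of their group, so these values depend on them. HXT1 missed the test in a fit of only the arrays compared, and PGU1 lay near the background limit in the knockout. BSC1 was below background on all 6 MSB2* arrays and on the wild-type and knockout liquid arrays, so its 2 values are not measured sizes.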

How the results depend on the processing

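Among the values of named genes, none that passed the test reversed its direction in the alternatives run, but for many of them a reversal was not possible. The fit of only the arrays compared and the replicate block left the list medians unchanged, so neither tests direction. Leaving out an array cannot reverse a gene whose agar and liquid arrays do not overlap, and the leading agar genes were named for that. The lack of reversals is therefore no measure of how stable these values are. With no fold threshold, MSB2* had 418 genes higher and 553 lower on agar and pRS316 1020 and 1277; the agar effect in MSB2* was higher for 59 and lower for 35 against pRS316, 573 and 790 against wild-type and 268 and 333 against the knockout, and MSB2* against pRS316 had 364 and 158 on agar and 552 and 556 in liquid. With the dimmest 25% of genes left out, so with fewer genes tested, MSB2* had 25 higher and 43 lower and pRS316 96 and 81; the effect differences were 11 and 4 against pRS316, 97 and 75 against wild-type and 33 and 53 against the knockout, and MSB2* against pRS316 had 31 and 10 on agar and 49 and 24 in liquid. Leaving out single arrays gave 34 to 53 higher and 78 to 88 lower in MSB2*, 14 to 19 and 12 to 21 against pRS316 (12 without MSB2* liquid C), and 43 to 64 and 78 to 170 against the knockout (170 without knockout agar A). The cause of these shifts was not tested beyond the smaller number of genes or arrays.

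Whether the replicate letters pair agar with liquid arrays is not known. For A, B and C, deviations of agar and liquid arrays from their group means correlated at 0.03, 0.15 and -0.02 in MSB2*. They correlated at 0.10, -0.23 and -0.35 in pRS316, 0.11, -0.07 and 0.15 in wild-type, and 0.13, 0.06 and 0.23 in the msb2 knockout. No reference value for unpaired arrays was computed, so these correlations do not settle it. With the replicate block, MSB2* had 44 genes higher and 84 lower, and 17 and 17 differed from pRS316. Under it GRE1, ECL1 and URA3 no longer passed in the difference from pRS316, ADH5, MAK21, QCR10 and ZPS1 between agar and liquid in MSB2*, or KSS1 between them in pRS316. Of the values of named genes under the alternatives, 3505 kept their direction and side of the threshold, 178 no longer passed, 57 newly passed, and 22 that passed in neither setting changed sign.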
